A study of Mus musculus with 9 samples.

Results

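The genes of deoxynucleoside triphosphate (dNTP) supply are those whose enzymes make, salvage or degrade the building blocks of DNA. The 9 genes described here were taken by name from the mouse annotation GENCODE M1 (genome build mm9), out of 37273 annotated genes of which 22367 are protein-coding. They are *Rrm1*, *Rrm2*, *Rrm2b*, *Tyms*, *Tk1*, *Dck*, *Dut*, *Shmt1* and *Samhd1*. For each gene, every BAP1 ChIP-Seq peak whose middle lay within 1 kb of any of its annotated transcription start sites (TSSs) was listed and is called a gene-proximal peak. The rule itself uses no measured value, but the genes were named with earlier results of these data known.

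BAP1 is a deubiquitinase that removes ubiquitin from a lysine of histone H2A, a mark laid down by Polycomb repressive complex 1. Its binding was mapped in Ba/F3, an immortal murine B cell precursor line grown with IL-3 from WEHI conditioned medium. The peak list rests on 2 immunoprecipitations, each sequenced once. In the wild type line the antibody was anti-BAP1. The other immunoprecipitation came from puromycin-selected cells that stably carried murine BAP1 with a triple FLAG tag, and used the anti-FLAG M2 antibody. The series holds 9 samples, and its input DNA and its H2AK119ub samples from wild type cells and from clones with CRISPR-Cas9 knockout of *Bap1* were not analysed here. The deposited list has 13164 peaks of 200 bp on 21 chromosomes, of which 10073 were gene-proximal. It does not say which immunoprecipitation a peak came from and carries no height, score or p-value. The depth of the samples is unknown, no replicate error can be formed, and no test was made. All statements are therefore about the presence and place of a listed peak. A gene without a peak is a gene that the list leaves out, not one shown to be unbound.

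Ribonucleotide reductase, a complex of a large and a small subunit, converts ribonucleotides to deoxyribonucleotides and is the gateway of new dNTP synthesis. Thymidylate is then made from deoxyuridylate with a one-carbon unit carried by folate, while the salvage kinases recover deoxynucleosides from outside the cell or from broken-down DNA. Dividing cells raise dNTP supply when they enter S phase, and hydrolases keep the pools in check and free of uracil.

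In the BAP1 peak list, 8 of the 9 genes (88.9%) had a gene-proximal peak, and *Tk1* was the exception. The share was 26.2% over all annotated genes and 39.6% over all protein-coding genes. Among protein-coding genes with a CpG-rich promoter, defined as a CpG ratio (observed over expected) of at least 0.6 and a GC content of at least 50% in the 500 bp before and after the start, the share was 70.6%. The members' share was therefore closer to that of CpG-rich genes than to that of all genes, and 9 genes are too few to place it more exactly. In all there were 9 peaks at the 8 genes, since *Dck* carried a pair. Having more than 1 gene-proximal peak was not rare, as 25.5% of the 8850 protein-coding genes with a peak did.

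**Figure D1:**
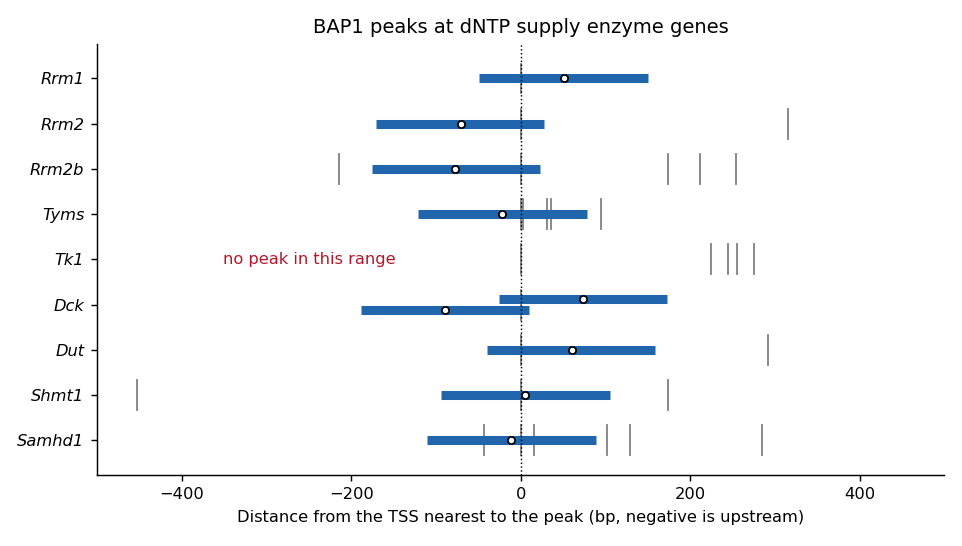
Position of each gene-proximal BAP1 peak (bar, 200 bp; the dot is its middle) in bp from the TSS nearest to it, with negative values upstream on the gene's strand; vertical ticks are the other annotated TSSs of the gene, and for *Tk1* distances are from the TSS of its protein-coding transcript. All 9 peaks span an own TSS, with middles from 89 bp upstream to 74 bp downstream, and *Tk1* has none.

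The sequences beneath these peaks show the promoters on which the list places BAP1. Each is written 5′ to 3′ on the strand of the gene, from the NCBIM37 (mm9) genome, and is the longest stretch of the peak that lies outside annotated exons. Capitals mark exact matches to the motifs searched, and a match on the opposite strand therefore shows as its reverse complement. The stretches of *Dut* (40 bases) and of the downstream peak of *Dck* (26 bases) held no match and are not printed. Every word was searched on both strands. Factors of the SP and KLF families were represented by GGGCGG, and the trimeric factor NF-Y by its box CCAAT. For the ETS family the word was CCGGAAG, and for basic helix-loop-helix factors that read the E-box it was CACGTG. The cell cycle words were TTTGGCGC, TTTCGCGC and TTTCCCGC for E2F, together with the CHR element of the DREAM complex, searched as TTTGAA and in its other form, which has a central C, as TTCGAA. The others were AAGATGGCG for YY1, GCATGCGC for NRF1, TGACGTCA for the cyclic AMP response element (CRE), the forkhead word of the FOXK proteins GTAAACA, and for the TATA box the plain word TATAAA. *Rrm1* lies at chr7:109590160-109590208 on the plus strand, *Rrm2* at chr12:25392935-25393105 on the plus strand, *Rrm2b* at chr15:37890859-37890972 on the minus strand, *Tyms* at chr5:30400158-30400278 on the minus strand, *Dck* (the upstream one of its pair) at chr5:89193832-89194020 on the plus strand, *Shmt1* at chr11:60624768-60624861 on the minus strand and *Samhd1* at chr2:156961002-156961068 on the minus strand.
Rrm1: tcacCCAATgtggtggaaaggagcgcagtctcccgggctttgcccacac
Rrm2: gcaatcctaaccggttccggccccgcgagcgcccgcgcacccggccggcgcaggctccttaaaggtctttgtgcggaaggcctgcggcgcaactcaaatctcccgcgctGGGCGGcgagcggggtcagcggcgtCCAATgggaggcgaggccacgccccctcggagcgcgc
Rrm2b: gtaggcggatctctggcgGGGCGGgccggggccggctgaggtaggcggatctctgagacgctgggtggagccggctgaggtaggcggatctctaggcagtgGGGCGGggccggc
Tyms: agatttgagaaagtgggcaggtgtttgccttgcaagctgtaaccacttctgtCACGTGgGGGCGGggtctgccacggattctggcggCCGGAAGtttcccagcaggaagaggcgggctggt
Dck: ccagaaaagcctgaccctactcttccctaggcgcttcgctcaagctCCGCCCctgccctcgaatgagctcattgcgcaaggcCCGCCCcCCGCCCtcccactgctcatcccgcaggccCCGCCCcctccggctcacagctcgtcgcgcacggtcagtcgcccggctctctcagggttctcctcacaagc
Shmt1: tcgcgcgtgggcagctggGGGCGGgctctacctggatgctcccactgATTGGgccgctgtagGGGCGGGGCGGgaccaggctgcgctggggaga
Samhd1: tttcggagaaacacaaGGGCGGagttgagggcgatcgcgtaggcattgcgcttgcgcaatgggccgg

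The 3 genes of ribonucleotide reductase each had 1 gene-proximal peak. *Rrm1*, which encodes the large subunit that holds the catalytic and allosteric sites, lies on the plus strand at chr7:109590209-109618285 with 1 annotated transcript of 19 exons. Its peak, chr7:109590160-109590359, had its middle 51 bp downstream of the TSS, inside the 5′ UTR of exon 1, with 49 of its bases before the TSS and 151 from the TSS base on. It was the sole peak within 50 kb of the TSS of the gene, whose nearest coding neighbours, the olfactory receptor genes *Olfr543* and *Olfr544*, had none.

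*Rrm2*, which encodes the S-phase small subunit that carries the tyrosyl radical, had its peak on the other side of the start. The peak, chr12:25392935-25393134, had its middle 71 bp upstream of the TSS of Rrm2-001 and upstream of every one of the 4 transcripts, with 29 of its bases from that TSS base on. Motif matches stand in the printed stretch, GGGCGG at -62 and CCAAT at -37, counted from the TSS base as 0.

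*Rrm2* was also the only member with further peaks within 50 kb that lay over 1 kb from every annotated TSS. The peak at chr12:25395003-25395202 fell in an intron 1997 bp downstream of the TSS of Rrm2-001 and 1209 bp from that of Rrm2-004, just outside the 1 kb window. Such a peak in the gene body, beyond 1 kb of every own TSS, was found in 6.4% of protein-coding genes with a gene-proximal peak. Another, chr12:25408878-25409077, lay 9967 bp past the end of the gene. In base composition the pair differed from the promoter peak, which had 72.0% GC and a CpG ratio of 1.08. The intronic peak had 46.0% GC and a CpG ratio of 0.0949, and the peak past the gene had 50.0% and 0.161. Neither held a match to GGGCGG. The intronic one is shown here because it is the sole gene-body peak among the members. It held 2 matches to the CHR word TTTGAA, 1 on each strand. A CHR word was in 6.62% of all peaks and in 5.52% of gene-proximal ones, so it was more frequent in peaks away from a TSS.
Rrm2 intron, chr12:25395003-25395202, plus strand: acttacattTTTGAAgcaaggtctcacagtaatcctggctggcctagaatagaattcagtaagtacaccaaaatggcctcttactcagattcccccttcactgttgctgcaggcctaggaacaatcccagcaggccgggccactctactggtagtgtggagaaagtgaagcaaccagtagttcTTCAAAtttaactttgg

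*Rrm2b*, which encodes the p53-inducible small subunit that serves DNA repair and mitochondrial DNA in resting cells, has 8 transcripts from 6 TSSs on the minus strand of chromosome 15. Its peak, chr15:37890835-37891034, had its middle 77 bp upstream of Rrm2b-001 and 138 bp downstream of Rrm2b-006, in an intron of the latter. Of the 6 TSSs, 5 lay within 1 kb of the middle. The match nearest to the start was GGGCGG at -13, and a pair of others stood at -96 and -131. Like *Rrm1*, the gene had no other peak within 50 kb of its TSSs.

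The thymidylate genes *Tyms*, *Shmt1* and *Dut* also had 1 gene-proximal peak each. *Tyms* encodes thymidylate synthase, which methylates dUMP to dTMP with methylene tetrahydrofolate. Its peak, chr5:30400079-30400278, had its middle 22 bp upstream of the TSS of the coding transcript Tyms-001 and upstream of all 6 transcripts, and the interval covered 4 of their TSSs. Among the members with a peak, this promoter was the least CpG-rich. It had a CpG ratio of 0.545 and a GC content of 52.8% in the window of 500 bp before and after the start. It was likewise the member peak with the lowest GC content (58.0%) and CpG ratio (0.568) within its 200 bp. The match to CCGGAAG at -34 was the one ETS word in the members' peaks, and CACGTG at -69 stood next to GGGCGG at -62.

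*Shmt1* encodes the cytosolic serine hydroxymethyltransferase, which loads tetrahydrofolate with the one-carbon unit used by thymidylate synthase. The middle of its peak, chr11:60624662-60624861, lay 5 bp downstream of the TSS of Shmt1-001, the shortest distance among the members. It was inside the 5′ UTR of that transcript and in an intron of Shmt1-009, which starts further upstream. The gene has 11 transcripts from 9 TSSs, and 3 of these TSSs were within 1 kb of the peak. GGGCGG occurred at -76 and in an overlapping pair at -32 and -27, CCAAT on the opposite strand at -47, and CACGTG at 59 and 87 within the exon. Its neighbours *Dhrs7b*, *Top3a* and *Smcr8* had gene-proximal peaks of their own, which stood at -18874 bp (*Dhrs7b*) and at 16361 bp (the one shared by *Top3a* and *Smcr8*) from the nearest *Shmt1* TSS, negative values being upstream.

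*Dut* encodes dUTPase, which hydrolyses dUTP to dUMP and so keeps uracil out of DNA while feeding thymidylate synthesis. Its side depended on the transcript. The peak, chr2:125072886-125073085, had its middle at 60 bp from the TSS of Dut-001, in the 5′ UTR of that transcript, but at -232 bp from that of Dut-002, the longest coding one, and at -650 bp from that of Dut-003. It covered only the TSS of Dut-001, and its one motif match was GGGCGG at 40, within the exon. There was no other peak within 50 kb of a *Dut* TSS.

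The salvage kinases differed from each other. *Dck* encodes deoxycytidine kinase, which phosphorylates deoxycytidine, deoxyadenosine and deoxyguanosine, and it had the only pair of gene-proximal peaks. One, chr5:89193832-89194031, had its middle 89 bp upstream of the single annotated TSS, and the other, chr5:89193995-89194194, had its middle 74 bp downstream, in the 5′ UTR of exon 1. The intervals overlapped at the TSS and together took in 189 bases before it and 174 from the TSS base on. Merging peaks whose edges lay within 500 bp joined them into 1. The upstream interval held GGGCGG on the opposite strand at -143, -107, -100, -71 and 1. The downstream interval held the only E2F word of the members' peaks, TTTGGCGC on the opposite strand at 148, and CCAAT at 128. The next peak, at -44140 bp, lay at the TSS of *Mob1b*.

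*Tk1* encodes the cytosolic thymidine kinase of dividing cells, and no peak lay within 1 kb of any of its 7 TSSs. Its protein-coding transcript Tk1-001 starts at 117687406 on the minus strand of chromosome 11, and the other 6 transcripts are annotated as retained introns. The nearest peak, chr11:117671802-117672001, was 15504 bp downstream of the coding TSS and 6066 bp from the TSS of the retained-intron transcript Tk1-007. It lay 4938 bp past the end of the gene and 892 bp from a TSS of *Syngr2*, a synaptogyrin gene.

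*Tk1* was also the only member with a divergent neighbour, meaning a gene on the other strand with a TSS within 1 kb upstream of a TSS of the member. This was *Afmid*, which encodes an arylformamidase and starts 57 bp upstream of a retained-intron TSS of *Tk1*. Their coding TSSs lie 168 bp apart, with the start of *Afmid* inside *Tk1*, so the pair overlaps head to head. In the annotation *Afmid* counts as a gene with a peak, but through the retained-intron transcript Afmid-004, which starts 16424 bp from the *Tk1* TSS, at *Syngr2*. The shared start of *Tk1* and *Afmid* thus carried no peak. Across protein-coding genes, 79.0% of those with a divergent neighbour within 1 kb had a gene-proximal peak, against 33.2% of those without one.

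Other genes around *Tk1* had peaks. Of the 8 coding genes whose TSS lies within 50 kb, 5 had a gene-proximal peak (39.6% over all protein-coding genes), namely *Afmid*, *Syngr2*, *Birc5*, *Tmc8* and *Tmc6*. These were not separate promoters throughout, since *Afmid* and *Syngr2* share an annotated start and the peak at it, and *Tmc6* and *Tmc8* lie on opposite strands at a peak near the starts of both. The peak of *Birc5*, which encodes the mitotic protein survivin, was at -23125 bp from the *Tk1* TSS. *Tk1* had the lowest promoter CpG ratio of the members, 0.484, and the lowest GC content, 51.4%. With 250 bp on either side of the start, the ratio was 0.572 at *Tk1* and lower, 0.550, at *Tyms*. At its 4 retained-intron TSSs next to the coding one, the CpG ratio was between 0.475 and 0.505, and the 250 bp before and 50 bp after each held 2 matches to GGGCGG. The same window at the coding TSS held none of the 11 motifs. The 200 bases before that TSS, chr11:117687407-117687606 on the minus strand, are shown beside the promoters with a peak. The shorter stretch under the peak of *Dut*, of 40 bases outside exons, likewise held no match.
Tk1 (no peak): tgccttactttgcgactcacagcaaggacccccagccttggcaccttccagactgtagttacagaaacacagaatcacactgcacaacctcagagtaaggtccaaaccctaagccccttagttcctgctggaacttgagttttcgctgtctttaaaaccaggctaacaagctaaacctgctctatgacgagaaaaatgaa

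*Samhd1* encodes a triphosphohydrolase that degrades dNTPs and so limits the pools, and it had a peak as well. Its peak, chr2:156960869-156961068, covered 3 of the 10 TSSs of its 12 transcripts. The middle was 11 bp upstream of the nearest coding TSS, at 156960958, and 32 bp downstream of that of Samhd1-001, in the 5′ UTR of the latter, and 6 of the TSSs lay within 1 kb. The one match was GGGCGG at -94, and no other peak lay within 50 kb of a *Samhd1* TSS.

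**Figure D2:**
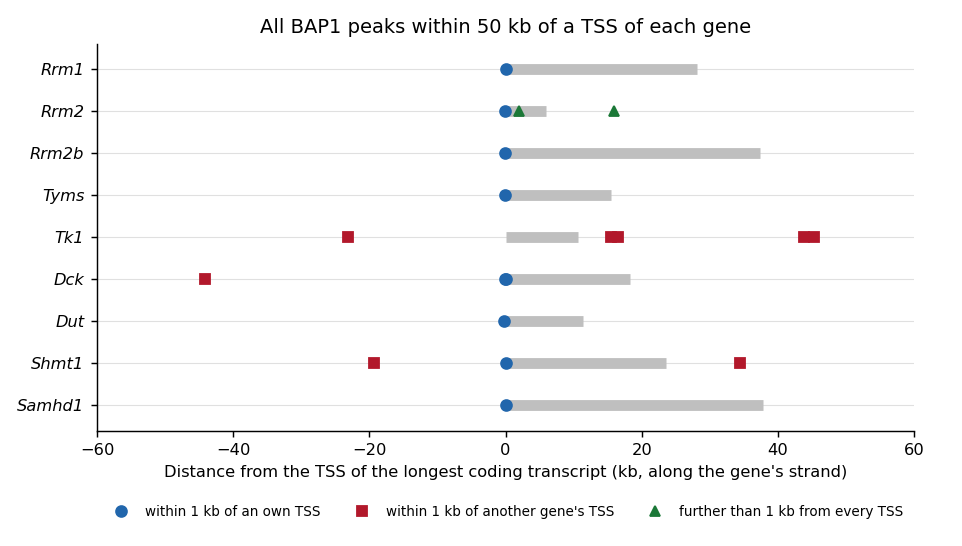
All BAP1 peaks within 50 kb of a TSS of each gene, by distance in kb from the TSS of the longest coding transcript along the strand of the gene; grey bars are the genes, circles peaks within 1 kb of an own TSS, squares peaks within 1 kb of another gene's TSS and triangles peaks further than 1 kb from every TSS. Both triangles are at *Rrm2*, all 5 peaks around *Tk1* are at other genes, and 5 of the 9 genes have no peak besides their own.

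Within 50 kb of the members' TSSs there were 10 peaks besides the gene-proximal ones. Of these, 8 lay within 1 kb of a TSS of another gene, and the other 2 were those of *Rrm2* described above. Genes with no other peak were *Rrm1*, *Rrm2b*, *Tyms*, *Dut* and *Samhd1*. None of the 9 gene-proximal peaks lay within 1 kb of a TSS of a gene other than the member, so each could be assigned to a single gene. A divergent neighbour within 1 kb was present at none of the 8 members with a peak. Of all protein-coding genes with a gene-proximal peak, 27.9% had one.

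The peaks of the members sat close to the start site. The absolute distance from middle to nearest TSS had a median of 60 bp and ran from 5 bp at *Shmt1* to 89 bp at the upstream peak of *Dck*. Over all gene-proximal peaks the median was 53 bp, with quartiles of 22 and 114 bp. All 9 middles were within 100 bp of a TSS, as were 71.7% of all gene-proximal peaks, and all 9 intervals covered a TSS of their gene. The middle was upstream in 5 (*Rrm2*, *Rrm2b*, *Tyms*, *Samhd1* and 1 peak of *Dck*) and downstream in 4 (*Rrm1*, *Dut*, *Shmt1* and the other peak of *Dck*). Over all gene-proximal peaks 69.8% were upstream and 29.3% downstream.

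**Figure D3:**
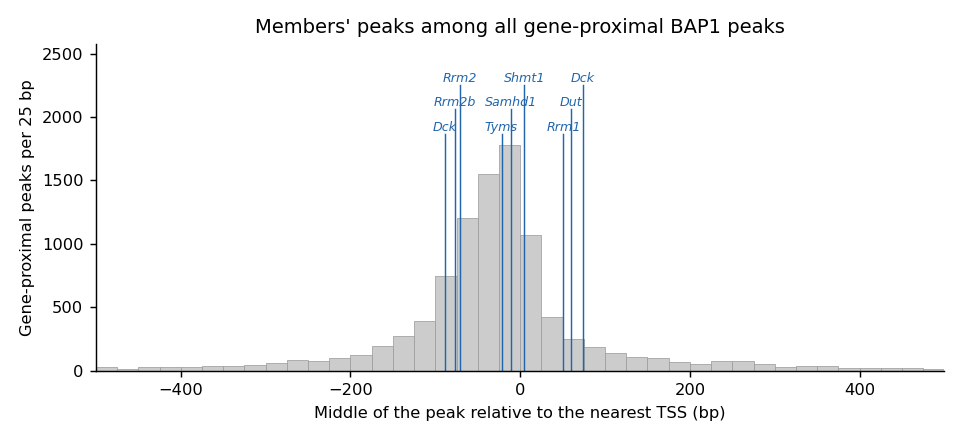
Number of gene-proximal BAP1 peaks per 25 bp by the signed distance of the middle from the nearest TSS (grey, whole list, shown from -500 to 500 bp), with a line for each of the 9 members' peaks. The members' peaks lie within 100 bp of the TSS, those of *Dck*, *Rrm2b* and *Rrm2* on the upstream side of the central hump. Those of *Rrm1*, *Dut* and the other *Dck* peak lie past it downstream. Their bin, from 50 to 75 bp, holds 248 peaks, against 1776 from -25 to 0 bp.

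Base composition of the promoters was measured from 500 bp before to 500 bp after the TSS of the longest coding transcript, for members and all genes alike. The CpG ratio was 0.846 at *Rrm1*, 0.803 at *Rrm2*, 0.770 at *Rrm2b*, 0.781 at *Dck* and 0.882 at *Dut*. It was lower at *Samhd1* (0.686), *Shmt1* (0.618), *Tyms* (0.545) and *Tk1* (0.484). The median of 0.770 compares with 0.765 over all protein-coding genes with a gene-proximal peak and 0.297 over those without one. At the TSS nearest to the peak, which differs for a pair of genes, the ratio was 0.754 at *Dut* and 0.712 at *Samhd1*. A promoter passing both CpG-rich limits was present in 7 of the 9 members, against 44.9% of protein-coding genes. All 7 had a peak, and of the other 2, *Tyms* had one and *Tk1* did not, where 14.2% of all protein-coding genes outside the CpG-rich class had one. The part of base composition in the presence of a peak was not tested.

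**Figure D4:**
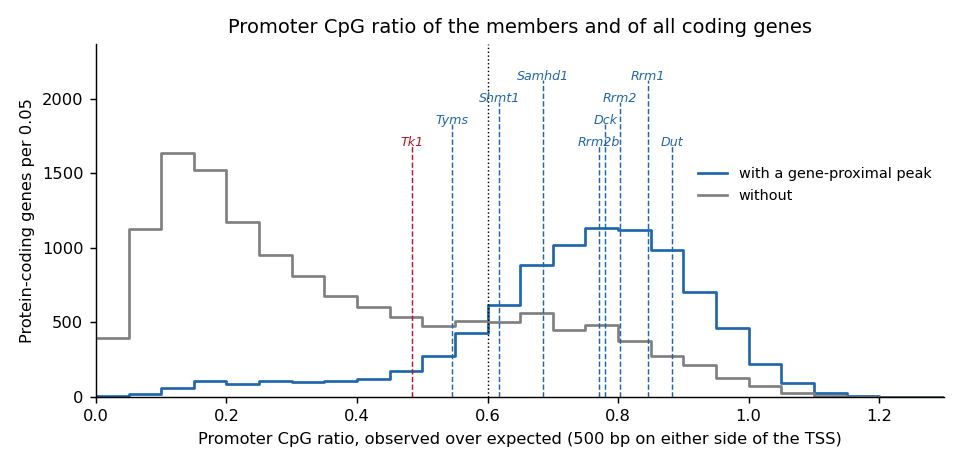
Number of protein-coding genes per 0.05 of promoter CpG ratio (observed over expected), with a gene-proximal peak (blue) and without (grey); dashed lines mark the 9 members, *Tk1* in red, and the dotted line the CpG-rich limit of 0.6. *Tyms* and *Tk1* lie below the limit, at 0.545 and 0.484, and the other 7 above it.

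Within the 200 bp intervals, the members' peaks had a median GC content of 69.0% and a median CpG ratio of 0.881. The corresponding medians were 67.0% and 0.875 over all gene-proximal peaks, and 54.0% and 0.333 over all other peaks.

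GGGCGG, the word bound by SP and KLF factors, was present in 9 of 9 members' peaks with 19 matches in all, counting in both overlapping peaks of *Dck* the match at 1 that they share. It was found in 59.5% of all peaks and 68.6% of gene-proximal ones, so it is a common word in the list. CCAAT was in 28.5% of all peaks and 30.0% of gene-proximal ones. Among the members it occurred in 4 of the 9 peaks, namely at *Rrm1*, *Rrm2*, *Shmt1* and the downstream peak of *Dck*. In the first 3 of these it began between 37 and 47 bases before the TSS, at -45, -37 and -47. CACGTG was in 2 of the 9 (*Tyms* and *Shmt1*) against 7.04% of all peaks, and CCGGAAG in 1 (*Tyms*) against 16.8%. An E2F word was in 1 (*Dck*) against 2.29%, and a CHR word in 1, at *Rrm1* at 91, against 6.62%. Over gene-proximal peaks alone, CACGTG was in 8.06%, CCGGAAG in 20.2%, an E2F word in 2.76% and a CHR word in 5.52%.

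The words of YY1, NRF1, CRE, FOXK and the TATA box had no match in the members' 9 peaks. They were rare in the whole list as well, with 2.95%, 4.82%, 2.8%, 2.49% and 4.73% of peaks. In the same order, the shares over gene-proximal peaks were 3.71%, 5.8%, 3.35%, 2.09% and 2.41%. In a window of the same size for every protein-coding gene, from 250 bp before to 50 bp after the TSS of the longest coding transcript, GGGCGG was found at 7 of the 9 members and in 44.8% of promoters. There CCAAT was found at 3 members, *Rrm1*, *Rrm2* and *Shmt1*, and in 37.5% of promoters. These matches describe the letters of the promoters and are not measured sites of any factor.

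The other genes of nucleotide metabolism give the setting of the 9. Of 97 genes in 7 lists, 96 were found in the annotation, and 64 of these (66.7%) had a gene-proximal peak, at a median absolute distance of 37.5 bp. By promoter class, 50 of the 57 CpG-rich ones had a peak and 14 of the 39 others. These shares again stand beside 70.6% and 14.2% over all protein-coding genes of each class.

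In the thymidylate and folate cycle, which surrounds *Tyms* and *Shmt1*, 13 of 16 genes (81.2%) had a peak. The genes without were *Aldh1l1*, *Aldh1l2* and *Mthfd2l*, with the nearest peak at 15534, -9807 and -564519 bp.

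Among deoxynucleoside salvage enzymes and nucleotide kinases, the list nearest to *Tk1* and *Dck*, 18 of 25 (72.0%) had a peak. The mitochondrial counterparts of the cytosolic kinases did so, with *Tk2* at -15 bp and *Dguok* at 27 bp. Thymidylate kinase *Dtymk* had one at -48 bp, and the nucleoside diphosphate kinases *Nme1* and *Nme2*, which make the triphosphates, at -72 and -51 bp. For *Nme2*, and for *Uck2* of the same list, 2 annotated entries were left and the one nearest to a peak was used. Of the 7 without, the first 6 by alphabet were *Ak5*, *Cda*, *Cmpk2*, *Dctd*, *Nme5* and *Nme7*. *Dctd*, whose deaminase makes dUMP from dCMP, had its nearest peak at -108506 bp, and the cytidine deaminase gene *Cda* at 17430 bp.

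New synthesis of nucleotides upstream of ribonucleotide reductase was covered to a like extent, in 4 of 5 pyrimidine genes (80.0%) and 12 of 14 purine genes (85.7%). CTP synthase *Ctps* had its peak at -37 bp, and its paralog *Ctps2* had none within 1 kb. *Prps1l1* and *Prps2*, of the phosphoribosyl pyrophosphate synthetases, were the purine genes without. Sanitation enzymes and nucleotidases, the list nearest to *Dut* and *Samhd1*, had a peak in 8 of 13 (61.5%), and those without included *Nt5c1a*, *Nt5c1b*, *Nt5e* and *Nudt16*.

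The lowest shares were in nucleoside and nucleotide transporters, with 5 of 10 (50.0%), and in purine salvage and base breakdown, with 4 of 13 (30.8%). Over all protein-coding genes the share was 39.6%. Most genes of both lists lay outside the CpG-rich class. Among the transporters, 3 of 4 CpG-rich genes and 2 of 6 others had a peak. In purine salvage and base breakdown it was 2 of 3 and 2 of 10. The shares over all protein-coding genes of these classes were 70.6% and 14.2%. The transporters with a peak included *Slc25a33*, *Slc25a36*, *Slc29a2* and *Slc29a3*. The 4 of the last list were the adenosine deaminase gene *Ada* at -12 bp, the phosphoribosyltransferase genes *Aprt* at -38 bp and *Hprt* at -77 bp, and the purine nucleoside phosphorylase gene *Pnp* at 245 bp.

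**Figure D5:**
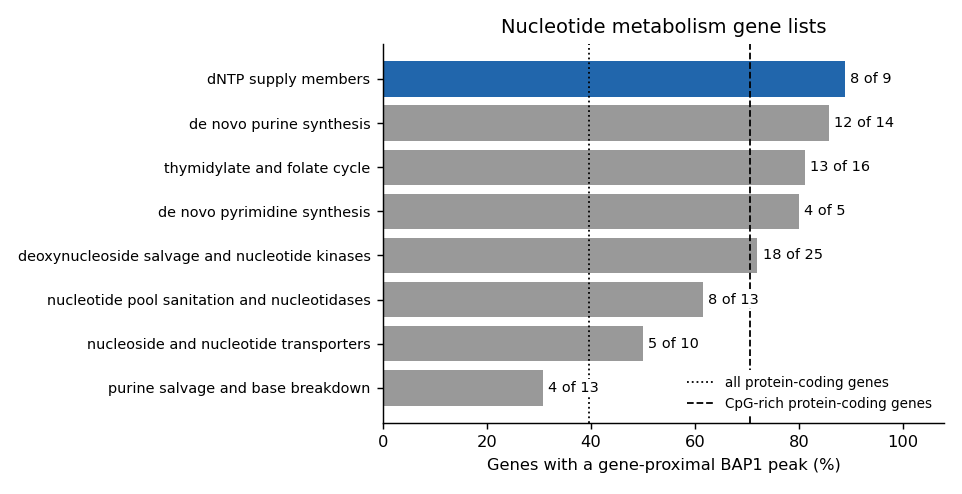
Percent of genes with a gene-proximal BAP1 peak in the 9 dNTP supply genes (blue) and 7 other lists of nucleotide metabolism (grey), with counts beside the bars; vertical lines give all protein-coding genes (dotted, 39.6%) and CpG-rich ones (dashed, 70.6%). The dNTP supply genes, at 8 of 9, stand at the top beside the purine synthesis and folate lists, and purine salvage and base breakdown at the bottom with 4 of 13.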

How the data were processed

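The authors immunoprecipitated chromatin from formaldehyde-fixed Ba/F3 cells, aligned reads to mm9 (Bowtie 1.0.0) and detected peaks over input DNA (MACS 1.4.2), with versions as in the submitters' processing notes. The values deposited are positions in bp, with no other unit, in 1 list of 13164 peaks over both samples. The threshold and the rule that combined the samples are not given in the sources used here, and a stricter threshold would shorten the list. Unmatched per-sample columns numbered 0.

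Peaks were placed on GENCODE M1 (NCBIM37, the same build) without mitochondrial genes, and distances counted from the middle of the peak. Sequences came from the NCBIM37 genome. Where a symbol had several entries, protein-coding ones were preferred. If 2 were left (*Nme2*, *Uck2*), the one nearest to a peak was taken, so this choice used the peaks themselves. The symbol *Dnph1* was not matched. Named were all 9 members, genes with a TSS near their peaks (none besides), the smaller side of each other list up to 6 in alphabetical order, and *Dtymk*, *Tk2*, *Dguok*, *Dctd*, *Nme1*, *Nme2* and *Ctps*. Some genes that this rule names are not reported here. Neighbours within 50 kb were named as the other peaks' genes, after their values were seen. The members, lists and motifs were chosen with earlier results of these data known. Alternatives were other windows, peak edges, other TSS choices, merged peaks, a narrower promoter window and longer intervals. Distances with their signs, the merging of peaks and the motif search were tested on simulated data, and the other steps were not. The software was Python 3.11.15, numpy 2.4.6, pandas 2.3.3, scipy 1.17.1, pysam 0.24.0 and matplotlib 3.10.9.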

Additional observations from a re-analysis of the deposited data

How the results depend on the processing

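The count of 8 of 9 genes with a peak was the same under all 7 alternatives (windows of 500 bp, 2 kb and 5 kb, the nearest edge of the peak, the TSS of the longest coding transcript only, coding TSSs only, and merging within 500 bp), while the share of all protein-coding genes ran from 37.6% to 42.5%. The number of the members' peaks ran from 8, when the pair at *Dck* was merged, to 10, when a window of 2 kb took in the intronic peak of *Rrm2*. The middle changed side at 2 genes when the TSS of the longest coding transcript alone was used, from 60 to -232 bp at *Dut* and from -11 to 32 bp at *Samhd1*. With intervals extended by 100 bp on either side, a CHR word was found in 2 members' peaks in place of 1. Over all peaks extended in this way its share was 15.3%, against 6.62% before. CCAAT stayed at 4 of the members' peaks, against 41.7% of all extended peaks. With 250 bp on either side of the start in place of 500 bp, each of the 9 promoters stayed on its side of the CpG ratio limit of 0.6, although *Tyms* (0.550) and not *Tk1* (0.572) was then the lowest. The windows at each *Tk1* TSS, and the promoter windows searched for motifs, were added after seeing the data. A stricter threshold was not run because the list has no score. No paired analysis was possible because the list joins both immunoprecipitations without saying which gave a peak.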

Other observations

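The name of each of the 13164 deposited peaks ends in a number, and what sets it is not explained in the sources used here. The members' gene-proximal peaks had numbers between 89 (*Dut*) and 6917 (*Rrm2b*), with a median of 3915 (*Rrm1*). The median number was 5087 over all gene-proximal peaks and 11471 over all other peaks. At *Dck* the downstream peak had number 4314 and the upstream one 6515. At *Rrm2* the promoter peak had number 5723, the intronic one 10050 and the one past the gene 11354.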
